A study of Mus musculus with 12 samples.

Results

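The genes described here were 10 markers used to tell subsets of mouse B cells apart: Cd1d1, Cd9, Dtx1, Notch2, Mzb1, Plac8, Cd93, Vpreb3, Sdc1 and Spn. They were taken by gene symbol from a table of 41128 genes, and all 10 were among the 12520 genes that were tested. RNA was sequenced from 12 libraries of spleen lymphocytes of C57BL/6J mice aged 6 to 8 weeks, in 4 groups of 3 libraries: resting CD43- B cells of females, resting CD43- B cells of males, naive CD4+CD62L+ T cells of females and naive CD4+CD62L+ T cells of males. Replicates are pooled mice according to the series design, and every spread given here is therefore one between pools and not between animals. Within each sex, libraries carry the label numbers 1 to 3 for B cells and 4 to 6 for T cells, and these are used as names below. B cells were obtained by absence of the surface protein CD43, and T cells by magnetic depletion of other cells (with antibodies to CD8a, B220, CD49b, CD11b, Ter-119, CD25 and the gamma/delta T cell receptor) followed by sorting for CD4+, CD62L high, CD44 low, CD25- cells. Levels are adjusted TPM as deposited by the authors; TPM is by definition corrected for transcript length, but how it was adjusted is not given in the sources used here, so an order of levels between genes holds for this scale as deposited. B and T cells were compared, and females with males in each, by limma on log2(adjusted TPM + 1). Fold changes are on that scale, which understates the change of genes with low levels, and a gene is called at a Benjamini-Hochberg adjusted p under 0.05 over all 12520 genes.

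Mature B cells of the spleen are mostly follicular cells, which recirculate, and marginal zone cells, which stay beside the marginal sinus and answer blood-borne antigen quickly. Marginal zone fate depends on the receptor Notch2, which is cut when it meets a Delta-like ligand and then acts in the nucleus with the DNA-binding protein RBPJ on targets such as Dtx1 and Hes1. Cd93 and Vpreb3 mark the younger, transitional cells that have just left the bone marrow, Sdc1 and Mzb1 are high in antibody-secreting cells, and CD43, the product of Spn, is found on B-1 cells, plasma cells and T cells and is low on resting conventional B cells.

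The labels were first set against markers of each lineage. Levels of the B cell genes Cd79a, Cd79b, Ms4a1 and Pax5 added up to between 2220 and 2643 in the B cell libraries and between 0.896 and 4.91 in the T cell libraries. Levels of the T cell genes Cd3d, Cd3e, Cd4, Lck and Tcf7 added up to between 9.76 and 14.1 in B cells and between 1017 and 1194 in T cells. The whole deposited signal of a library ranged from 561020 to 1453940, and the most abundant transcript took 32.2% of it in female B cell 1 and 37.4% in male T cell 6. No count or depth is given with these levels; each comes with a deposited lower and upper bound whose level is not given in the sources used here.

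Of the 10 markers, 7 were called higher in B cells (Plac8, Mzb1, Vpreb3, Cd93, Sdc1, Notch2 and Cd1d1) and 3 higher in T cells (Spn, Cd9 and Dtx1). Over all tested genes 73.0% were called in one direction or the other, 31.4% with the higher level in B cells and 41.6% with the higher level in T cells, so a call in itself sets no gene apart in this comparison. In 9 of the 10 no B cell library fell within the range of the T cell libraries, against 53.9% of all tested genes, and the exception was Dtx1. The median log2 fold change of the markers was 2.80, beside -0.09 for all tested genes. Spn is included in these counts and in this median, although the B cells were taken for lack of its product. Plac8, Mzb1, Vpreb3, Cd93 and Sdc1 passed the filter on low values, at least 1 adjusted TPM in 3 libraries, through their B cell libraries only, so they had to differ between the cell types to be tested. This also holds for genes of the lists below that passed it through 1 cell type only. In these bulk samples, fewer cells of a type and less RNA per cell cannot be told apart.

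**Figure D1:**
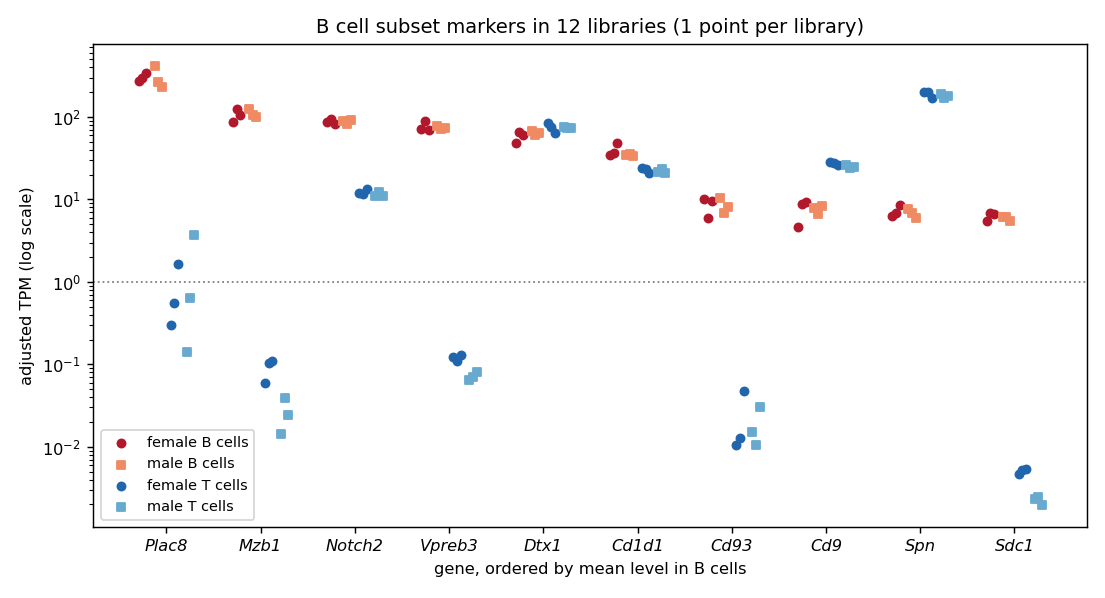
Level of the 10 markers in each of the 12 libraries, 1 point per library, as adjusted TPM on a log axis; genes are ordered by their mean in B cells, colours and shapes give cell type and sex, and the dotted line marks 1 adjusted TPM. Plac8, Mzb1, Notch2, Vpreb3, Cd1d1, Cd93 and Sdc1 lie higher in every B cell library than in any T cell library, Cd9 and Spn lie higher in every T cell library, and Dtx1 overlaps.

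In B cells the markers spanned from a mean of 303 adjusted TPM for Plac8 to 6.15 for Sdc1. Their order by level was Plac8, Mzb1, Notch2, Vpreb3, Dtx1, Cd1d1, Cd93, Cd9, Spn and Sdc1. Compared by point values over the 6 libraries, Mzb1 and Notch2, and Notch2 and Vpreb3, overlapped among neighbours in this order. Cd93 and Cd9, Cd9 and Spn, and Spn and Sdc1 overlapped too, while the other neighbouring pairs did not. By the deposited bounds, Vpreb3 also overlapped with Dtx1, and Dtx1 with Cd1d1. In T cells the order by point values was Spn, Dtx1, Cd9, Cd1d1, Notch2, Plac8, Vpreb3, Mzb1, Cd93 and Sdc1. Only Vpreb3 with Mzb1 and Mzb1 with Cd93 overlapped with their neighbour in these values. By the deposited bounds Plac8 reached down to 0.0422 in male T cell 4 and Vpreb3 up to 0.311 in female T cell 6. Cd93 reached down to 0.000474 in female T cell 4 and Sdc1 up to 0.0153 in female T cell 6. The order from Plac8 to Sdc1 in T cells was therefore not resolved.

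The promoter sequences of a pair of markers are shown first, because these were the only ones among the markers with a sequence at hand that held any of the 4 short motifs searched for on both strands. The motifs were GTGGGAA for RBPJ, ATGCAAAT for the octamer bound by Oct factors, the EBF1 motif and TATAAA for the TATA box, and windows were the 250 bases before a gene's start in RefSeq (GRCm38.p6). Promoters of 7 of the 10 markers were found in that set (Notch2, Plac8, Dtx1, Cd9, Spn, Vpreb3 and Sdc1). Vpreb3, at chr10:75948050-75948299 on the plus strand, held the octamer on its minus strand, with the first base 45 bases before the start, and the octamer occurred in 1.60% of 32851 windows. Cd9, at chr6:125494761-125495010 on the minus strand, held the RBPJ motif 212 bases before the start, and that motif occurred in 5.42% of windows. Both sequences are written 5′ to 3′ along the gene with the motif in capitals.
Vpreb3 promoter: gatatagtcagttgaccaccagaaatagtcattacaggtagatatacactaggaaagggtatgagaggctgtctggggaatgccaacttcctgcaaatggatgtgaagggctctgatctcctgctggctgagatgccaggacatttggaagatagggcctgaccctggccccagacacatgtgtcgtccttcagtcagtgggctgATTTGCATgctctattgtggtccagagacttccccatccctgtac
Cd9 promoter: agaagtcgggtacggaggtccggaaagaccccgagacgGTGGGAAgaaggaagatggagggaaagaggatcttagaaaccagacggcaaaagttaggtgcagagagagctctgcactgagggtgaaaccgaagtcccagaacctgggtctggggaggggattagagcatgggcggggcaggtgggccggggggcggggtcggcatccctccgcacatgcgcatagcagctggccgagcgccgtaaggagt
EBF1 letters occurred in 0.779% and TATA box letters in 12.4% of all windows and in none of those of the markers. A match or its absence describes the letters in these windows, and binding was not measured. The Vpreb3 window lies inside the longer gene model used for coordinates below, which starts further upstream. Guanine and cytosine made up 50.4% of the Vpreb3 window and 61.6% of the Cd9 window, beside a median of 52.4% over all windows.

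Among the surface receptors of marginal zone cells, Notch2 (ENSMUSG00000027878, chr3:98013527-98150361, plus strand, GRCm38) was high in B cells. Its level was 86.8, 94.1 and 82.6 adjusted TPM in the female B cell libraries and 89.4, 82.2 and 91.1 in the male ones. In T cells it was 12, 11.8 and 13.4 in females and 11.1, 12.1 and 11.1 in males. Every B cell library lay far above every T cell library, and the means of 87.7 ± 4.75 and 11.9 ± 0.863 (SD, n = 6 each) stood 7.36-fold apart. The log2 fold change was 2.78 (SE 0.06, limma adjusted p = 7.1e-14). In B cells Notch2 also varied least among the markers, with an SD of 0.0865 on the log2 scale among B cell libraries of 1 sex.

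Notch1, the receptor that drives T cell fate in the thymus, showed the opposite order. It lay between 5.08 and 6.91 in the B cell libraries and between 22.7 and 26.5 in the T cell libraries (log2 fold change -1.89, SE 0.07, limma adjusted p = 2.2e-11). Notch4 averaged 0.605 in B and 0.603 in T cells, and Notch3 stayed under 0.01 in all 12 libraries; both were under the filter. Notch2 made up 93.0% ± 0.866 of the summed level of the 4 Notch receptors in B cells (91.6% to 94.0%) and 32.0% ± 1.19 in T cells (30.7% to 33.4%; SD, n = 6). The difference of 61.03 percentage points gave p = 0.0022 in a two-sided exact permutation test over the 12 libraries, the smallest p that this test can give. This test and the B against T fit took the 6 T cell libraries as independent, although those with the same number deviated together, so their p-values may be too small.

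Of the 9 Notch receptors and ligands listed, 4 passed the filter on low values, with 2 called higher in B and 2 higher in T cells. Dll1, a ligand of Notch2, averaged 1.10 ± 0.252 in B cells and was at or under 0.001 in T cells (log2 fold change 1.06, SE 0.08). Jag2, a ligand of the other family, averaged 0.218 in B and 1.13 in T cells (log2 fold change -0.80). Among 17 enzymes and regulators that cut, glycosylate or degrade the receptors, 5 were called higher in B cells, 6 higher in T cells and 6 were not called. Lfng, a fringe glycosyltransferase that changes the ligand preference of Notch, averaged 21.7 ± 1.51 in B and 126 ± 8.15 in T cells (log2 fold change -2.48, SE 0.06, limma adjusted p = 9.5e-13). The related Mfng averaged 27.2 in B and 43.5 in T cells (-0.66, adjusted p = 1.7e-06). Numb, an inhibitor of Notch, was also higher in T cells (-0.89), whereas the proteases Adam17 (0.79) and Adam10 (0.20) and the ubiquitin ligase Itch (0.27) were higher in B cells, these 4 values being log2 fold changes.

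In the nucleus, Rbpj did not pass the test, with 10.3 ± 1.73 in B and 11.6 ± 1.13 in T cells (log2 fold change -0.16, SE 0.10, limma adjusted p = 0.16); without male B cell 1 it was -0.23 with an adjusted p of 0.046. Of the 12 nuclear partners listed, 6 were called higher in B cells, 2 higher in T cells and 4 were not called. The coactivators Ep300 (log2 fold change 0.95) and Maml3 (0.50) were among those higher in B cells, while the histone modifiers Kdm5a (-0.09, adjusted p = 0.25) and Hdac1 (0.00, adjusted p = 0.97) were not called. Of 11 target genes tested, 3 were called higher in B cells, 4 higher in T cells and 4 were not called. Hes1, a repressor induced by Notch, lay between 20.8 and 26.3 in B cells and at or under 0.06 in every T cell library (log2 fold change 4.57, SE 0.07, limma adjusted p = 4e-15). Its relative Hes5 averaged 3.37 ± 0.866 in B and 0.0996 in T cells (1.97, adjusted p = 7.9e-09). Gata3, which Notch induces in T cells, averaged 12.4 ± 1.16 in T cells and was under 0.01 in B cells (-3.74, adjusted p = 2.4e-14).

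Dtx1 (ENSMUSG00000029603, chr5:120680202-120711927, minus strand) encodes the ubiquitin ligase Deltex1, a Notch target often read as a sign of Notch2 signalling in marginal zone cells. Its level was 48.2, 64.7 and 60.8 in the female and 67.6, 60.4 and 64.1 in the male B cell libraries. The T cell libraries gave 84.7, 75.9 and 64.3 in females and 76.2, 73.6 and 74.3 in males. Female T cell 6 fell inside the range of the B cell libraries, and female B cell 1 was the lowest of all. The means of 60.96 ± 6.8 in B and 74.8 ± 6.52 in T cells (SD, n = 6 each) differed by -0.30 on the log2 scale (SE 0.08, limma adjusted p = 0.0059). With every library rescaled to the same total, the difference was 0.08 with an adjusted p of 0.74, and the median of all tested genes moved from -0.09 to 0.25. With median-ratio scaling the adjusted p was 0.018, so the call of Dtx1 held at that scale and the deposited one and not at the equal total. Dtx3l, another Deltex family member, averaged 33.0 in B and 55.5 in T cells (-0.74, adjusted p = 2.5e-07; -0.36 with an adjusted p of 0.11 at the equal total).

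**Figure D2:**
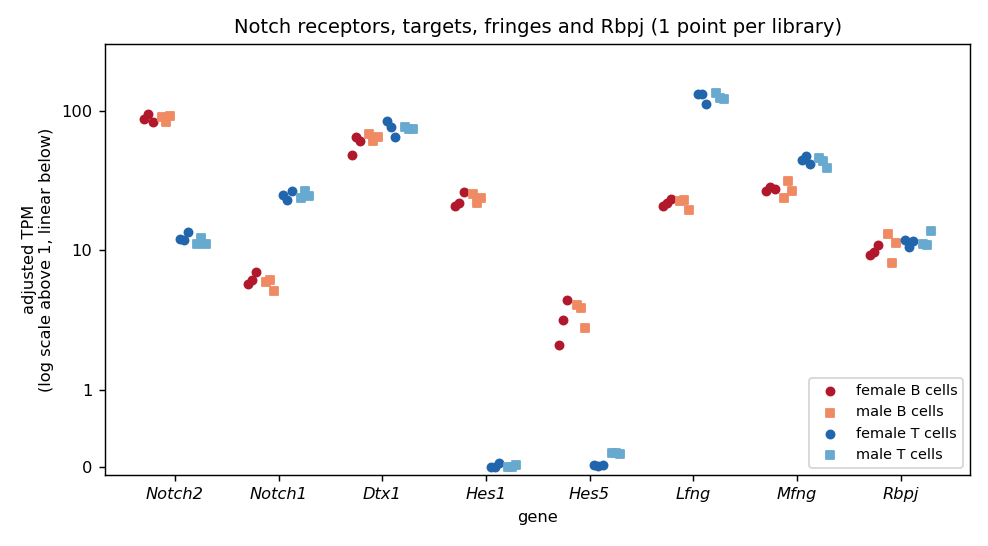
Level of Notch receptors, targets, fringe enzymes and Rbpj in each library, 1 point per library, as adjusted TPM on an axis that is logarithmic above 1 and linear below. Notch2, Hes1 and Hes5 lie higher in B cells, Notch1, Lfng and Mfng lie higher in T cells, and Dtx1 and Rbpj overlap.

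Cd1d1 (ENSMUSG00000028076, chr3:86995834-86999441, minus strand) encodes the CD1d molecule that presents lipids to natural killer T cells and is high on marginal zone B cells. Its level was 34.3, 36.5 and 47.6 in female and 34.3, 35.6 and 33.7 in male B cells. In T cells it was 23.8, 23.1 and 20.8 in females and 21.5, 23.6 and 20.7 in males. All B cell libraries lay above all T cell libraries, and female B cell 3 stood apart above the other B cell libraries. The log2 fold change was 0.70 (SE 0.08, limma adjusted p = 3e-06), from means of 37.0 ± 5.31 and 22.3 ± 1.41. Its near copy Cd1d2 averaged 0.371 in B and 0.444 in T cells, so Cd1d1 made up 99.0% ± 0.318 of their sum in B cells and 98.0% ± 0.384 in T cells, a difference of 0.956 percentage points (two-sided exact permutation p = 0.0043, n = 6 each). How reads shared by the 2 copies were divided is not given in the sources used here.

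Of the 7 tested genes around CD1d and lipid loading, Cd1d1 included, 3 were called higher in B cells, 1 higher in T cells and 3 were not called. The lipid transfer proteins Gm2a (53.6 against 26.1, log2 fold change 1.01) and Psap (281 against 149, 0.91) were higher in B cells. B2m, the light chain of CD1d and of class I molecules, averaged 1589 in B and 2639 in T cells (-0.74, adjusted p = 0.00098), and at the equal total it was -0.36 with an adjusted p of 0.27.

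Cd9 (ENSMUSG00000030342, chr6:125460266-125494791, minus strand) encodes a tetraspanin, a membrane organiser found on marginal zone B cells, B-1 cells, plasma cells and platelets. Its level was 4.64, 8.70 and 9.39 in female and 7.96, 6.6 and 8.41 in male B cells. In T cells it was 28.6, 27.4 and 25.8 in females and 25.8, 24.2 and 24.7 in males. Every T cell library was above every B cell library, and the T cell mean of 26.1 ± 1.65 was 3.43-fold the B cell mean of 7.62 ± 1.73 (log2 fold change -1.68, SE 0.13, limma adjusted p = 7.9e-08). Of the marginal zone markers Cd9 and S1pr1 were, with Dtx1, the ones called higher in T cells.

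Among B cell libraries Cd9 varied more than any other marker, with an SD of 0.360 on the log2 scale within a sex, beside a median of 0.127 over all tested genes, and female B cell 1 was the lowest. The platelet genes Ppbp and Pf4 were lowest in the same library but highest in female B cell 2. Cd9 itself was highest in female B cell 3. Ppbp was 2.64, 10.9 and 4.78 in female and 4.05, 2.99 and 6.6 in male B cells, and Pf4 was 0.537, 3.31 and 1.54 in female and 0.567, 0.985 and 2.63 in male B cells. Levels of the 7 platelet and megakaryocyte genes listed added up to between 11.2 and 27.7 in B cells and between 31.6 and 45.7 in T cells, where Itgb3, which T cells also express, made up most of the sum (41.1 ± 5.49). Of the 4 tested, Ppbp, Pf4 and Itga2b were higher in B and Itgb3 higher in T cells; their part in the spread of Cd9 was not tested. Of 14 tetraspanins tested, 5 were called higher in B cells, 7 higher in T cells and 2 were not called. Cd81, a partner of the B cell coreceptor, averaged 94.5 ± 6.57 in B and 12.2 ± 1.91 in T cells (log2 fold change 2.87), and Cd37 averaged 343 in B and 61.6 in T cells (2.46), while Cd53 (336 against 482, -0.52) and Cd82 (42.1 against 60.2, -0.50) were lower in B cells at the deposited scale and not called at the equal total.

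Plac8 (ENSMUSG00000029322, chr5:100553725-100572245, minus strand), which encodes a small cysteine-rich protein found in marginal zone B cells and in myeloid and plasmacytoid cells, was the most abundant marker in B cells. Its level was 273, 299 and 341 in female and 415, 264 and 227 in male B cells. In T cells it was 0.299, 0.559 and 1.64 in females and 0.142, 0.641 and 3.70 in males. Male B cell 1 was the highest and male B cell 3 the lowest of the B cell libraries, and both T cell libraries numbered 6 were above the other T cell libraries. The means were 303 ± 66.5 and 1.16 ± 1.35 (SD, n = 6 each), and the highest deposited upper bound in T cells was 5.32. The log2 fold change of 7.30 had the largest error of the markers (SE 0.30, limma adjusted p = 1.4e-10).

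Plac8 is also a gene of inflammatory monocytes, so monocyte genes were set beside it. Ly6c2, which such monocytes express and some lymphocytes too, was 4.59, 6.96 and 9 in female and 10.7, 6.37 and 3.22 in male B cells, with its highest and lowest library the same as for Plac8. In T cells Ly6c2 lay between 1.46 and 2.19 in all libraries except male T cell 6, which had 4.66 and was also the highest for Plac8. The summed level of the 10 monocyte and macrophage genes listed, Ly6c2 included, was 17.8 to 28.0 in B cells and 2.83 to 11.7 in T cells. In B cells that sum was highest in male B cell 1, like Plac8. It was lowest in female B cell 1, unlike Plac8, and 20.2 in male B cell 3. In T cells the sum was highest in female T cell 6, with 8.05 in male T cell 6. All 4 tested genes were higher in B cells, among them Lyz2 (8.89 against 0.795, log2 fold change 2.61) and Adgre1 (2.98 against 0.183, 1.78). Of the plasmacytoid dendritic cell genes, Siglech was at or under 0.01 in every library, and the 3 tested, Pacsin1, Bst2 and Ccr9, were higher in T cells, with a summed list level of 20.02 to 24.7 in B and 43.5 to 58.1 in T cells. The part of such cells in the level of Plac8 was not tested.

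Mzb1 (ENSMUSG00000024353, chromosome 18, 35647267 to 35649367) encodes a chaperone of the endoplasmic reticulum that helps to assemble immunoglobulin M and is named for marginal zone and B-1 cells. Its level was 85.6, 124 and 104 in female and 123, 106 and 100.2 in male B cells. In the 6 T cell libraries it was between 0.0143 and 0.110, and the highest deposited upper bound was 0.242. No B cell library came near the T cell range, and female B cell 1 was the lowest of the B cell libraries. The log2 fold change was 6.66 (SE 0.08, limma adjusted p = 1.1e-15), from a B cell mean of 107 ± 14.5 (SD, n = 6).

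The other 8 marginal zone genes listed were all tested, with 7 called higher in B cells and 1, S1pr1, higher in T cells. These 7 were under 1 adjusted TPM in every T cell library and passed the filter through B cells only. Their calls were therefore largely set by the filter, and 31.4% of all tested genes were called higher in B cells. Cr2, the complement receptor CD21, averaged 226 ± 38.4 in B and 0.387 in T cells (log2 fold change 7.36, limma adjusted p = 1.4e-14). The ectoenzyme Cd38 averaged 138 ± 18.5 and 0.370 (6.68), the scavenger receptor Cd36 35.0 ± 4.91 and 0.0505 (5.09), and the sphingosine phosphate receptor S1pr3 8.17 ± 1.93 and 0.0151 (3.15). S1pr1, which lets lymphocytes leave lymphoid organs, averaged 131 in B and 277 in T cells (-1.08). Of 7 follicular B cell genes, 4 were called higher in B cells, 2 higher in T cells and 1 was not called. Fcer2a, the CD23 of follicular cells, averaged 174 ± 23.7 in B and 0.232 in T cells (7.15), the homing receptor Cxcr5 averaged 150 and 1.78 (5.84), Zfp318 78.1 and 7.57 (3.21) and Cd55 342 and 58.1 (2.53).

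Cd93 (ENSMUSG00000027435, chr2:148436640-148443563, minus strand), the C-type lectin receptor recognised by the antibody AA4.1, was among the low markers of B cells. Its level was 10.2, 5.97 and 9.43 in female and 10.3, 6.88 and 8.18 in male B cells, and between 0.0105 and 0.0478 in T cells. The B cell libraries varied by an SD of 0.318 on the log2 scale within a sex, with female B cell 2 the lowest, and none came near the T cell range, whose highest deposited upper bound was 0.0843. The log2 fold change was 3.19 (SE 0.12, limma adjusted p = 3.8e-11). Cd93 was the only one of 5 genes of its family to pass the filter; Thbd averaged 0.630 in B and 0.00986 in T cells. Endothelial cells express Cd93 too, and of the 8 endothelial and stromal genes listed only Pecam1, which lymphocytes also carry, passed the filter (92.01 in B and 91.4 in T cells, log2 fold change 0.01, adjusted p = 0.91), while Cdh5, a defining endothelial gene, averaged 0.357 in B and 0.113 in T cells. The part of endothelial or other cells in the level of Cd93 was not tested.

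Vpreb3 (ENSMUSG00000000903, chr10:75943057-75949657, plus strand), whose promoter is printed above, encodes a relative of the surrogate light chain that stays in the endoplasmic reticulum with newly made heavy chains. Its level was 71.9, 89.0 and 69.5 in female and 77.2, 70.4 and 73.9 in male B cells. In T cells it was between 0.0649 and 0.131, with a highest deposited upper bound of 0.311. The B cell libraries lay close together and far above the T cell libraries (75.3 ± 7.25, SD, n = 6; log2 fold change 6.12, SE 0.06, limma adjusted p = 2.4e-16). The genes of the surrogate light chain itself, Vpreb1, Vpreb2 and Igll1, which pre-B cells express, were at or under 0.0315 in every B cell library and under the filter.

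Of the 11 transitional and immature B cell genes listed, 6 were tested, with 3 called higher in B and 3 higher in T cells. Apart from Cd93 and Vpreb3, 1 of 4 tested was higher in B cells, Cd24a, the heat stable antigen that falls as B cells mature, at 380 ± 38.8 against 1.12 (log2 fold change 7.49, limma adjusted p = 9.1e-16). The recombinase gene Rag1 lay between 0.821 and 1.70 in B cells and at or under 0.0126 in T cells and was under the filter. The cytokine receptor Il7r averaged 0.419 in B and 218 in T cells (-7.28), and the terminal transferase Dntt averaged 0.00585 in B and 6.99 in T cells (-2.99).

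Sdc1 (ENSMUSG00000020592, chr12:8771323-8793715, plus strand) encodes syndecan-1, the CD138 of plasma cells, and was the lowest marker in B cells. Its level was 5.48, 6.82 and 6.74 in female and 6.14, 6.16 and 5.54 in male B cells. All 6 T cell libraries were at or under 0.00545, with a highest deposited upper bound of 0.0153. The B cell libraries held within a narrow range (6.15 ± 0.571, SD, n = 6) and were all above the T cell libraries (log2 fold change 2.83, SE 0.06, limma adjusted p = 2.7e-13). Of the 8 tested genes of the syndecan and heparan sulphate list, 6 were called higher in B and 2 higher in T cells. Sdc4 was the most abundant of them in B cells, at 96.5 ± 9.86 against 0.323 in T cells (6.26), and the sulphotransferase Ndst1 averaged 21.9 against 7.32 (1.46), while the chain-elongating enzyme Ext1 averaged 2.59 against 13.0 (-1.95).

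Apart from Sdc1 and Mzb1, 12 plasma lineage genes were tested, with 9 called higher in B cells, 2 higher in T cells and 1 not called. Jchain, which links antibody polymers, was 50.7, 81.7 and 104 in female and 131, 109.6 and 110.4 in male B cells and averaged 0.635 in T cells (log2 fold change 5.90). Irf4 averaged 52.6 ± 4.85 in B and 1.37 in T cells (4.52), Tnfrsf13b, the receptor TACI, 119 ± 9.40 and 14.9 (2.91), and Xbp1 50.1 and 27.0 (0.87). Prdm1, the regulator that commits B cells to secretion, was lower in B than in T cells, at 0.676 ± 0.150 against 1.66 ± 0.257 (-0.67, limma adjusted p = 2.7e-06). Of 8 germinal centre genes, 6 were called higher in B cells, 1 higher in T cells and 1 was not called. Bcl6 averaged 28.5 ± 5.39 in B and 6.46 in T cells (1.97), Rgs13 6.46 ± 2.15 and under 0.001 (2.85), and the death receptor Fas 3.43 and 15.4 (-1.91). Germinal centre levels added up to between 38.7 and 67.2 in B cells. All 6 cell cycle genes were higher in B cells, Mki67 at 10.7 ± 3.15 against 0.443, with a summed level of 25.2 to 56.1 in B and 3.83 to 6.36 in T cells. The part of antibody-secreting or dividing cells in the levels of Sdc1 and Mzb1 was not tested.

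Spn (ENSMUSG00000051457, chr7:127132232-127137823, minus strand) encodes CD43 itself, the sialylated surface mucin whose absence defined the B cells. Because the B cells were taken for lack of this protein, its RNA level in them is given as a description and not as a finding. Its level was 6.35, 6.80 and 8.46 in female and 7.55, 6.80 and 6.00 in male B cells. In T cells it was 199.96, 200.7 and 170.0 in females and 190.1, 168.4 and 176.8 in males. All T cell libraries lay far above all B cell libraries, and the T cell mean of 184 ± 14.6 was 26.4-fold the B cell mean of 6.99 ± 0.889 (log2 fold change -4.54, SE 0.08, limma adjusted p = 1.8e-14).

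Of 9 tested genes that bind, modify or resemble CD43, Spn included, 4 were called higher in B cells, 4 higher in T cells and 1 was not called. Gcnt1, which builds branched O-glycans on CD43, averaged 21.7 ± 1.19 in B and 0.0591 in T cells (log2 fold change 4.42, limma adjusted p = 1.9e-15). Selplg, another sialomucin, averaged 16.2 ± 2.26 in B and 129 ± 18.6 in T cells (-2.91). Of the cytoskeletal linkers of CD43, Msn was not called, at 218 in B and 203 in T cells (0.10, adjusted p = 0.24). Ezr was called higher in B cells, at 179 and 144 (0.31, adjusted p = 0.0013). At the equal total Msn was 0.48 with an adjusted p of 0.048. Apart from Spn, 5 of the B-1 cell genes listed were tested, with 2 called higher in B cells, 2 higher in T cells and 1 not called. Cd5, carried by B-1a and T cells, averaged 0.783 ± 0.256 in B and 163 ± 17.8 in T cells (-6.53). Plscr1 averaged 3.75 ± 0.572 and 0.218 (1.96) and the B-1 regulator Bhlhe41 3.15 ± 0.647 and 0.00301 (2.03), both higher in B cells.

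**Figure D3:**
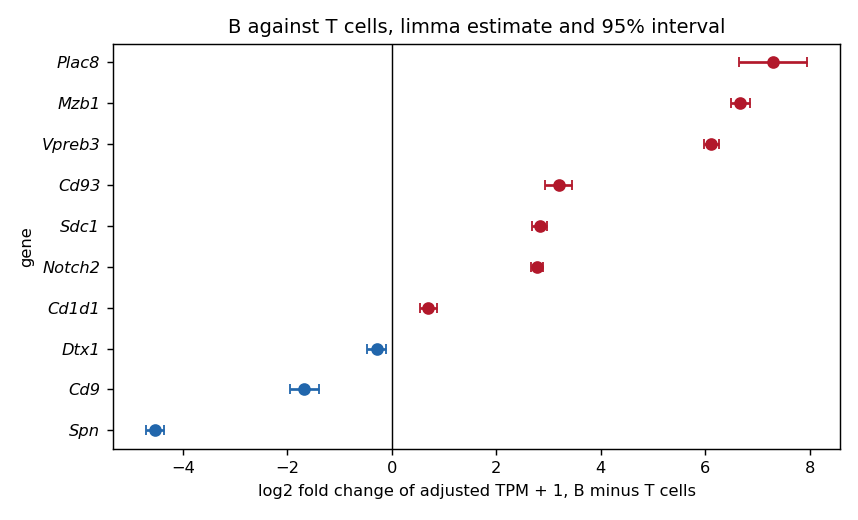
Log2 fold change of the 10 markers, B minus T cells, on the log2(adjusted TPM + 1) scale, with the limma estimate as a point and its 95% interval as a bar; red marks genes called higher in B cells and blue those called higher in T cells. The estimates run from -4.54 for Spn to 7.30 for Plac8, and the interval of Dtx1 lies nearest to 0.

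The sexes were set against each other in B cells and in T cells. No marker was called in either: in B cells 18 genes of all tested (0.144%) were called by limma and 373 had an unadjusted p under 0.05, and in T cells 13 (0.104%) were called and 319 had an unadjusted p under 0.05. The female minus male differences of the markers lay between -0.15 for Dtx1 and 0.17 for Cd1d1 in B cells, with 95% intervals that together reached from -0.88 to 0.98, both bounds from Plac8. In T cells they lay between -0.24 for Plac8 and 0.12 for Cd9, with intervals from -1.17 to 0.69. The intervals and p-values given here come from the fit without pairing, although same-numbered T cell libraries deviated together. With the replicate numbers as blocks no marker was called either. The lowest unadjusted p of a marker was 0.135 in B and 0.194 in T cells. For Notch2 in B cells the difference was 0.00 with an interval from -0.17 to 0.17. With 3 libraries a group, a difference inside a marker's own interval remained compatible with its values. The sex effect was also compared between B and T cells: 0 genes (0%) were called by limma, 295 had an unadjusted p under 0.05, and the markers gave differences between -0.18 and 0.29 with intervals from -1.02 to 1.61.

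Libraries of 1 group did not vary alike for all markers. Within a sex the SD on the log2 scale among B cell libraries was 0.360 for Cd9, 0.338 for Plac8, 0.318 for Cd93 and 0.215 for Mzb1, and 0.0865 for Notch2 and 0.120 for Sdc1, around the median of 0.127 for all tested genes. Female B cell 1 was the lowest of the 6 libraries for Cd9, Mzb1, Dtx1 and Sdc1 and among the highest for Cd93. Male B cell 1 was the highest for Plac8, Cd93 and Dtx1. The ratio of the upper to the lower deposited bound had a median of 1.03 for Notch2 and 1.32 for Cd9 in B cells, and it was 1.64 for Cd9 in female B cell 1 (3.56 to 5.82).

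**Figure D4:**
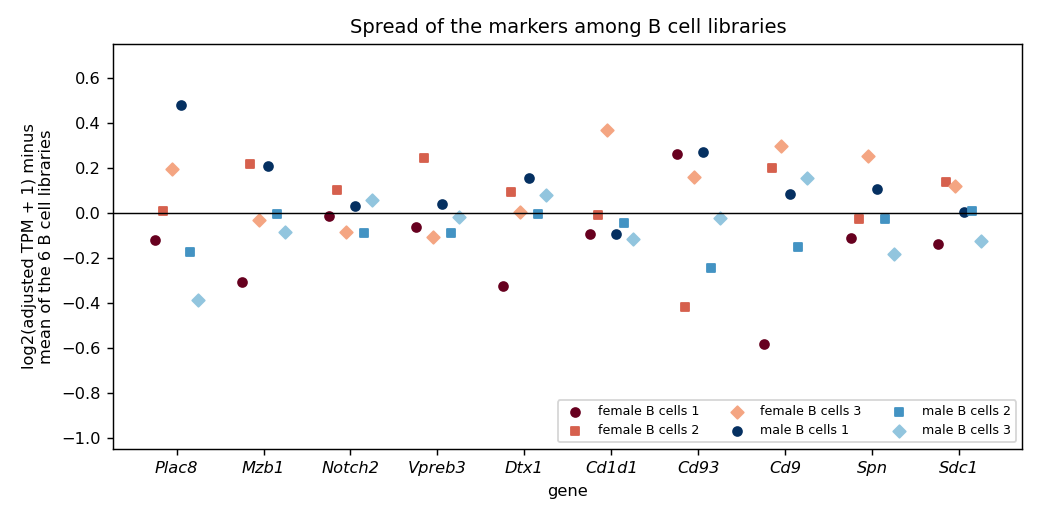
Spread of the 10 markers among the 6 B cell libraries: each point is log2(adjusted TPM + 1) of 1 library minus the mean of the 6, with genes ordered by mean level. The points of Notch2 stay within 0.11 of the mean, and the lowest point is Cd9 in female B cell 1 at -0.58.

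The residual levels of B cell markers in the T cell libraries were compared with the B cell means. Plac8 in T cells was 0.0467% to 1.22% of its B cell mean, Cd93 0.123% to 0.564%, Vpreb3 0.0862% to 0.174%, Mzb1 0.0133% to 0.103% and Sdc1 0.0322% to 0.0886%. The B cell genes Cd79a, Cd79b and Ms4a1 were at 0.117% to 0.322%, 0.0241% to 0.205% and 0.0117% to 0.173%. Pax5, the regulator of B cell identity, was lower than all of these, at 0.000167% to 0.00148%. By point values Vpreb3, Mzb1 and Sdc1 lay within the range spanned by Cd79a, Cd79b and Ms4a1 and above that of Pax5. Plac8 and Cd93 went above all 4 in both libraries numbered 6. The ratio of the upper to the lower deposited bound in T cells had a median of 50.5 for Mzb1 and 12.5 for Vpreb3. It was 11.8 for Sdc1, 16.2 for Cd93 and 2.72 for Plac8. The place of Mzb1, Vpreb3, Sdc1 and Cd93 among the B cell genes was therefore not resolved. Those 2 libraries also stood apart from the other 4 T cell libraries in Ctla4, at 11.4 and 13.2 against at most 2.15. Il2ra, which encodes the CD25 removed in the sort, was 4.11 and 5 in them against at most 0.340. Lyz2 was 1.22 and 2.52 in them against at most 0.873. With both left out, all 10 markers kept their direction and call; the part of other cells in these values was not tested.

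**Figure D5:**
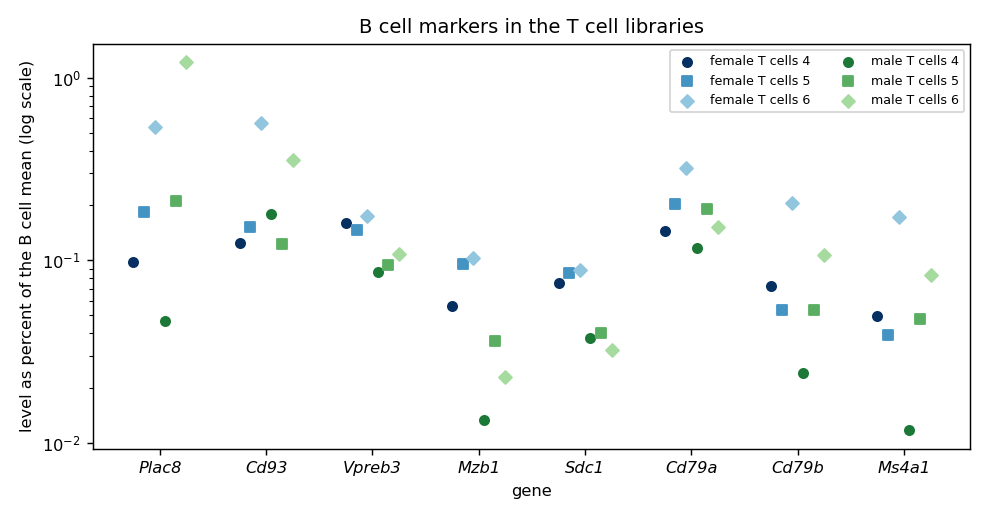
Level of B cell markers in each T cell library as a percentage of the mean of the 6 B cell libraries, on a log axis, with Cd79a, Cd79b and Ms4a1 for comparison. Plac8 and Cd93 are highest in female and male T cell 6, and every point except Plac8 in male T cell 6 lies under 1%.

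Genes of other cells that a spleen preparation could hold were also read. None of 7 neutrophil genes passed the filter (summed level 0.451 to 2.41 in B and 0.118 to 2.96 in T cells), with S100a8 and S100a9 under the filter. Of 5 natural killer cell genes 1 was tested, Prf1, higher in T cells (1.17 against 15.1, log2 fold change -2.88), while Gzma averaged 0.354 and 0.564. Erythroid genes varied most, with a summed level of 1.45 in female B cell 1 and of 307 in male B cell 1, and none of the 3 tested was called (Hbb-bs 47.5 ± 58.8 against 9.51, adjusted p = 0.24; Hba-a2 36.6 ± 43.5 against 5.99, adjusted p = 0.11); without male B cell 2 both were called, at adjusted p of 0.042 and 0.018, and Hba-a2 was also called without female B cell 1 (0.035) and without male T cell 5 (0.049). These lists share no gene with the markers.

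For each marker the tested genes with the most similar profile over the 12 libraries were sought among genes with a mean within 1 on the log2 scale, by the root mean square difference of centred log2 values. The closest were Edf1 for Dtx1 (0.0477), Spns3 for Sdc1 (0.0695), 5031414D18Rik for Vpreb3 (0.0740), Sorl1 for Notch2 (0.0944), Lmo2 for Mzb1 (0.108), Bloc1s2 for Cd1d1 (0.109), Agpat9 for Cd93 (0.117), Tmem66 for Spn (0.124) and Ccdc53 for Cd9 (0.152). Plac8 had no gene as close, with Bank1 at 0.407 and Lyn at 0.422. Second in the order were Paics for Dtx1, Gapt for Sdc1, Btk for Vpreb3, Snx29 for Notch2, Plcg2 for Mzb1, Nelfcd for Cd1d1, Gm16710 for Cd93, 4632428N05Rik for Spn and Dnajc15 for Cd9.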

How the data were processed

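The authors deposited 1 table for the series with, per library and gene, a signal named adjusted TPM and its lower and upper bounds. Per the labels, RNA was depleted of ribosomal RNA, spiked with ERCC transcripts and made into stranded libraries; Trim Galore, FastQC, STAR and mm10 stand in the submitters' processing notes. The quantifier, the adjustment, the bound level and the depth are not given in the sources used here, so precision rests on replicates and bounds. Some label fields read genomic DNA, although the series is RNA sequencing.

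Of 41128 gene IDs, 40254 matched GENCODE M21, which gave coordinates. Genes with at least 1 adjusted TPM in at least 3 libraries (12520) were tested with limma 3.58.1 (trend, R 4.3.3) on log2(adjusted TPM + 1), 4 groups in 1 fit, with Benjamini-Hochberg adjustment. Shares were compared by exact permutation over 924 arrangements (scipy 1.17.1, Python 3.11.15). On simulated data with 200 of 12520 genes changed by 1 on the log2 scale, B against T cells, 97.5% were recovered and 4.48% of calls were false (10 draws). The simulated libraries were independent and few genes changed, whereas 73.0% of genes were called in the data. These rates need not hold for the B against T fit. Groups came from the labels. No 2 libraries were identical. ERCC spike-ins were not analysed here.

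Same-numbered female and male T cell libraries deviated together (r = 0.72, 0.55 and 0.52 across genes), so the numbers pair them, while the B cell libraries did not (-0.17, -0.04 and -0.34). The markers and lists were chosen with earlier results of these data known. Besides the markers, from each list the 3 called genes with the largest fold change and the 2 highest in B cells were named; S1pr1, S1pr3, Cd36, Itga2b, Jag2, Mfng, Rbpj, Cd82, Xbp1, Prdm1, Bhlhe41, Rag1, Dntt, Il2ra, Vpreb1, Igll1 and Siglech were named after their values were seen, and genes that the rule names but the text does not are not reported here. Alternatives were another pseudocount, no filter, 2 rescalings, no trend, a replicate block and leaving out each library. Promoters were RefSeq windows.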

Additional observations from a re-analysis of the deposited data

Results flagged for a closer look

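In the 20 sets of 6 libraries examined, the 10 markers in B cells and in T cells, 2 held 1 library with a gap to its neighbour above Dixon's 95% critical value as a share of the whole range, a limit that chance passes in about 1 in 20 sets. Cd1d1 was 47.6 adjusted TPM in female B cell 3, above the other B cell libraries at 33.7 to 36.5. Dtx1 was 48.2 in female B cell 1, below the other B cell libraries at 60.4 to 67.6. No cause was tested for either value. Without female B cell 3 and without female B cell 1, Cd1d1 and Dtx1 kept their direction and call.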

How the results depend on the processing

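Of the 10 markers, 9 kept their direction and call between B and T cells under every alternative run. The exception was Dtx1, which turned to 0.0825 on the log2 scale (adjusted p = 0.74) with libraries scaled to an equal total of 1000000; leaving out single libraries it stayed between -0.35 and -0.23. Of all calls between B and T cells 43.0% were higher in B cells at the deposited scale, 70.8% at the equal total and 50.1% with median-ratio scaling. A pseudocount of 0.1 raised the log2 fold change of Mzb1 to 9.43, Vpreb3 to 8.59, Plac8 to 8.5, Cd93 to 6.13 and Sdc1 to 5.91, the 5 markers with the lowest means in T cells.

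At the equal total Rbpj became 0.19, Kdm5a 0.29 and Hdac1 0.38, and with median-ratio scaling Kdm5a became 0.000201 and Hdac1 0.0831; none of these passed the test. Without single libraries Hdac1 lay between -0.0336 and 0.0213, and Pecam1 between -0.0143 and 0.0456. With both T cell libraries numbered 6 left out, an alternative chosen after seeing the data, Pecam1 was -0.0215. Without a filter 24591 genes were called between B and T cells, 10985 between the sexes in B cells, 10607 in T cells and 11201 for the difference of the sex effects; the cause was not tested. At the equal total these sex counts were 36, 23 and 16. A pseudocount of 0.1 gave 24 for T cells and 1 for the difference, and without the trend the difference gave 3.

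Leaving out single libraries gave 8717 to 9193 genes called between B and T cells, 12 to 18 between the sexes in B cells, 9 to 14 in T cells and 0 to 3 for the difference, the 3 without female T cell 6. With the replicate block the sex counts were 14 in B cells, 10 in T cells and 0 for their difference, and no marker was called. No paired analysis was possible because B and T cell libraries share no replicate number. With no depth given, levels under 1 adjusted TPM could not be resolved beyond their bounds.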
